A study of Homo sapiens with 4 samples.

Results

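Of 10 genes of cellular iron uptake, storage and export, 1 was called lower in K562 cells that expressed the fusion gene RUNX1::ERG. Over all tested genes, 1.15% were called lower and 3.64% higher. SLC25A37, the importer that takes iron across the inner mitochondrial membrane, fell by 33.7% (log2 fold change -0.59, 95% interval -0.92 to -0.26). This call sat close to its threshold and was lost under some alternatives. The transferrin receptor TFRC had a fitted fold change of almost the same size, -0.57, but its libraries overlapped between the groups and it did not pass the test, although it did under some alternatives. The ferritin subunits, the iron exporter and the iron regulatory proteins did not pass the test either. The 10 genes were TFRC, TFR2, FTH1, FTL, SLC25A37, SLC11A2, SLC40A1, STEAP3, IREB2 and ACO1, picked by name from 25702 listed genes through their NCBI gene numbers, and all 10 were among the 15394 genes expressed highly enough to be tested.

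K562 is an established cell line from a human chronic myeloid leukemia that keeps erythroid features. The cells received LeGO-iG2, a lentiviral expression plasmid that also makes green fluorescent protein, either carrying RUNX1::ERG or empty (EV, the control). Poly(A)-enriched RNA was sequenced from 2 biological replicates of each group, and the general methods describe transfection with 10 µg of DNA and a default harvest at 72 h. RUNX1::ERG joins 2 hematopoietic transcription factors and comes from childhood acute myeloid leukemia. The model is 1 cell line after a transient transfection, and the sources used here do not state whether cells that took up the plasmid were sorted before RNA was made. In such bulk samples, fewer cells of a type and less RNA per cell cannot be told apart.

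Library totals ran from 59695387 to 82352144 counts, and replicates differed by more than counting noise. ERG had 4 and 4 counts with EV and 80443 and 27218 with RUNX1::ERG, as the labels require, and reads of the plasmid and of the native genes are not separated. RUNX1 had 4736 and 3453 counts with EV and 66232 and 28769 with RUNX1::ERG. Both were lower in RUNX1::ERG replicate 2 than in replicate 1, with ERG at 954 and 379 CPM and RUNX1 at 786 and 400 CPM after TMM scaling. MYC, a regulator known to act on TFRC and IREB2, was at 301 and 289 normalized CPM with EV and at 134 and 140 with RUNX1::ERG (log2 fold change -1.11, adjusted p = 0.002, edgeR). Normalized CPM is a gene's counts divided by the total of its library after TMM scaling, expressed as CPM. The 8 erythroid markers examined were all detected and summed to 11476 and 11558 normalized CPM with EV and to 13757 and 12471 with RUNX1::ERG. None of the 8 passed the test, and the fitted change was higher for 5 and lower for 3. The log2 fold change was -0.59 for HBZ (SE 0.15, adjusted p = 0.05 after rounding, edgeR), at the edge of the threshold. SLC25A37, which was called, had the same fitted change and SE (adjusted p = 0.048, edgeR). The log2 fold change was 0.27 for HBE1 and HBG2 (adjusted p = 0.22 and 0.24, edgeR). An unadjusted p under 0.05 was found for 3 of the 8 markers, beside 2767 of all 15394 tested genes. Of the other markers, 10 megakaryocyte and platelet genes summed to 74.3 and 85.1 with EV and to 491 and 429 with RUNX1::ERG. Of the 6 that could be tested, 5 rose, beside 3.64% of all tested genes. PF4 (0 and 2 counts with EV) and PPBP (2 and 6) entered the test only through the RUNX1::ERG libraries. GP1BB was at 0 in every library, and GP9 and TREML1 had at most 2 counts in any library. The 7 monocyte and macrophage markers summed to 7.32 and 10.5 with EV and to 22.4 and 20.9 with RUNX1::ERG. Of the 3 that could be tested, CD14 and LYZ rose, beside 3.64% of all tested genes. FCGR1A did not pass the test (log2 fold change 0.94, adjusted p = 0.56, edgeR). CSF1R had 3 and 3 counts with EV and 18 and 4 with RUNX1::ERG, and MRC1 at most 2 in any library. CD163 and MARCO were at 0 in every library. Hepatocyte markers summed to at most 3.56, B cell markers to at most 2.16 and T cell markers to between 25.3 and 37.5 normalized CPM. The part of these differences in the iron gene results was not tested.

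Cells take up iron bound to transferrin through the transferrin receptor. The complex is internalized, the iron is reduced in the endosome and leaves it through a divalent metal transporter, and it is then sent to mitochondria for heme and iron-sulfur cluster synthesis, stored in ferritin, or exported through ferroportin. Erythroid cells place most of this iron in heme. Iron regulatory proteins bind a hairpin in messenger RNA, the iron-responsive element, when iron is scarce. Binding in a 3′ UTR protects the transferrin receptor transcript from decay, whereas binding in a 5′ UTR blocks translation of ferritin and ferroportin without the need for any change in transcript level. RNA counts therefore read the first kind of control and are largely blind to the second.

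The hairpins of the 4 genes in which a sequence search found one are shown because they divide the genes by this rule. Each is given 5′ to 3′ on the transcript's strand from GRCh37, with the 6-base loop in capitals. The search asked for an unpaired C, a stem of 5 pairs with G-T pairs allowed, and a loop of CAGTGN in the canonical GENCODE v44 transcript.
TFRC 3′ UTR, site 1, chr3:195777850-195777878, minus strand: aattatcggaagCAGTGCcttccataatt
TFRC 3′ UTR, site 2, chr3:195777446-195777474, minus strand: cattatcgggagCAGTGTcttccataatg
TFRC 3′ UTR, site 3, chr3:195777381-195777409, minus strand: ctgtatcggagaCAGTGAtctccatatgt
TFRC 3′ UTR, site 4, chr3:195777334-195777362, minus strand: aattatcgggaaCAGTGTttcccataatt
FTH1 5′ UTR, chr11:61735046-61735074, minus strand: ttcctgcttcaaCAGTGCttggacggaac
FTL 5′ UTR, chr19:49468592-49468620, plus strand: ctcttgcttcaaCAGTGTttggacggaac
SLC40A1 5′ UTR, chr2:190445387-190445415, minus strand: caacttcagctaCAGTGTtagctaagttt

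The FTH1 and FTL elements share the same upper stem and most of the lower stem, and the 4 TFRC matches found by this search lie within one short stretch of its 3′ UTR. The pattern was present in 255 of 19528 protein-coding genes (1.31%), and TFRC was the 1 gene with 3 or more matches. No match was found in the canonical transcripts of TFR2, SLC25A37, SLC11A2, STEAP3, IREB2 and ACO1, which says only that these letters are not there. Of 6 other transcripts known for an element, the same search found one in 3, so it misses known elements. The known element of SLC11A2 belongs to a transcript form with another 3′ end, and forms are not separated in these counts.

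The 10 genes differed widely in level. Divided by canonical transcript length, FTL was highest at a mean of 2336 normalized CPM per kilobase over the 4 libraries (range 2136 to 2620), followed by FTH1 at 1456 (range 1413 to 1544). TFRC came next at 165 (range 114 to 254), then TFR2 at 73.4, SLC25A37 at 35.9 and IREB2 at 24.1. The ranges of these 6 genes did not overlap. SLC11A2 at 15.1, STEAP3 at 12.6 and SLC40A1 at 11.9 could not be ordered with certainty, since SLC11A2 overlapped STEAP3 and STEAP3 overlapped SLC40A1. ACO1 was lowest at 7.26 (range 6.58 to 7.94). Ferritin RNA was thus far above that of the other 8 genes. FTH1 and FTL together took 0.3638% of all counts in EV replicate 1 (exact binomial 95% interval 0.3622 to 0.3653, counting error only) and 0.3479% in EV replicate 2, and 0.4238% and 0.3805% in the RUNX1::ERG libraries. All 10 genes together took between 0.5133% and 0.5532% of a library.

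**Figure D1:**
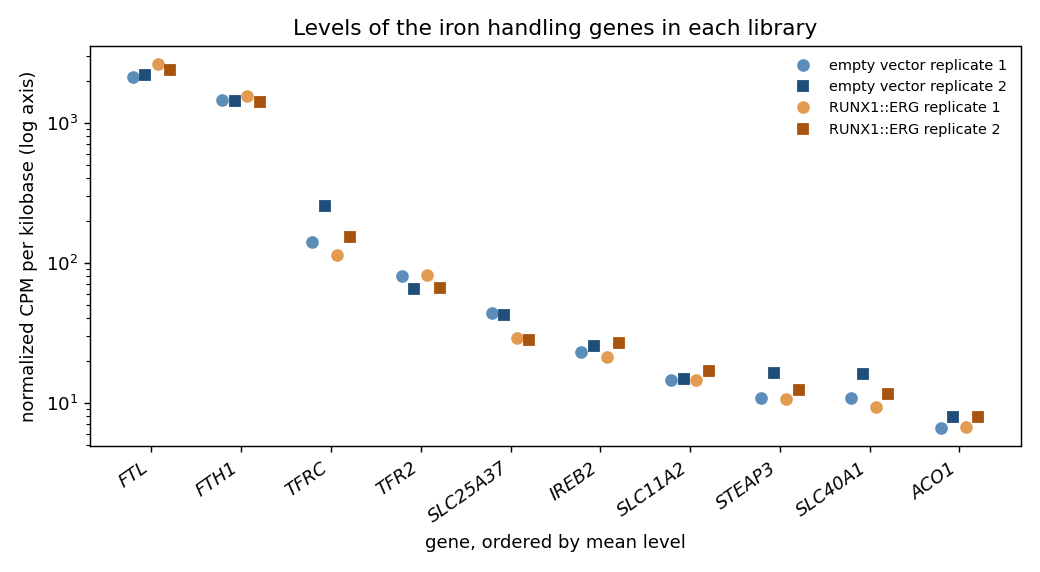
Normalized CPM per kilobase of transcript (log axis) of each gene in each of the 4 libraries, with genes ordered by their mean. Blue points are EV and orange points RUNX1::ERG, circles replicate 1 and squares replicate 2; the SLC25A37 points separate by group, while the TFRC points overlap.

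The question put to the counts was whether RUNX1::ERG changed the RNA of each gene. With 2 libraries a group, an exact permutation of the labels cannot give a two-sided p below 0.333, so tests rest on edgeR's quasi-likelihood fit across all genes with Benjamini-Hochberg adjustment and a threshold of 0.05. By that rule, 3.64% of tested genes were higher and 1.15% were lower with RUNX1::ERG. Of the 10 iron genes, 0 were higher and 1 was lower. An unadjusted p under 0.05 was found for 2 of them, beside 2767 of all 15394 tested genes. The median log2 fold change was 0.00 over the 10 genes and 0.00 over all genes tested. Both RUNX1::ERG libraries lay above both EV libraries for 1 of the 10 genes (25.1% of all tested genes) and below them for 1 (22.1%). Separation of 1 gene in 10 in either direction is not above these shares.

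**Figure D2:**
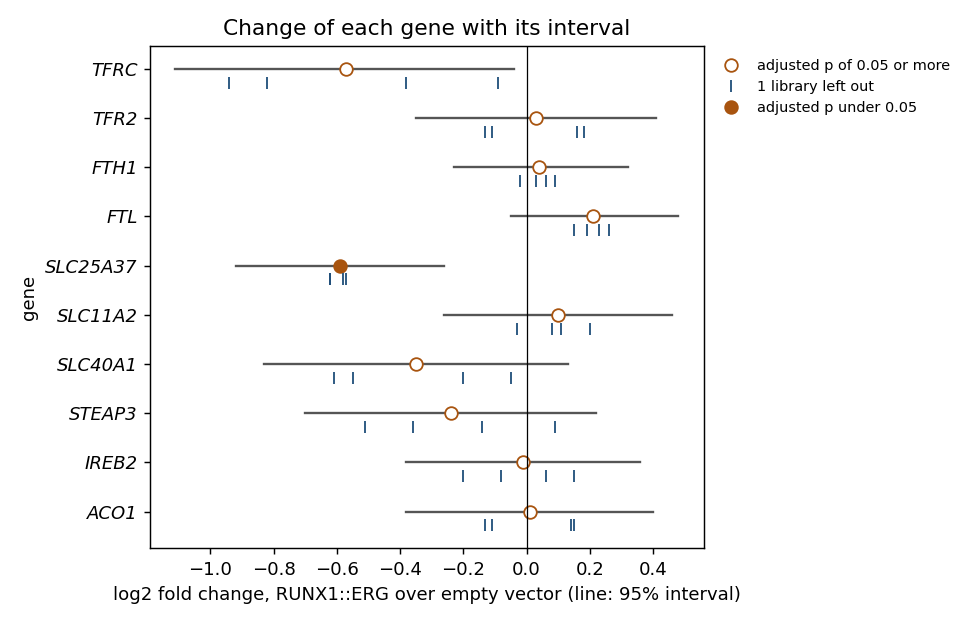
Log2 fold change of each gene, RUNX1::ERG over EV, as a circle with its 95% interval, filled where the adjusted p was under 0.05. Short ticks give the fold change after each of the 4 libraries was left out; SLC25A37 is the 1 filled circle and its ticks stay between -0.62 and -0.57, while the TFRC ticks run from -0.94 to -0.09.

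TFRC, transferrin receptor 1 (NCBI gene 7037, chr3:195739382-195809024 of GRCh37, minus strand), is the main door for transferrin iron. It was at 709 and 1275 normalized CPM in EV replicates 1 and 2 and at 570 and 764 in RUNX1::ERG replicates 1 and 2. EV replicate 2 stood well above the other 3 libraries, and RUNX1::ERG replicate 2 was above EV replicate 1, so the groups overlapped. The log2 fold change was -0.57 (SE 0.24, 95% interval -1.11 to -0.04, adjusted p = 0.24, edgeR). The gap between the EV replicates was 0.85 on the log2 scale, larger than the group difference itself and larger than the EV gap of 87.7% of tested genes. The fold change was -0.09 without EV replicate 2 (adjusted p = 0.9), and -0.94 without EV replicate 1 (adjusted p = 1.6e-05, edgeR), where TFRC would count as lower. It was -0.82 without RUNX1::ERG replicate 2 (adjusted p = 0.035) and -0.38 without RUNX1::ERG replicate 1 (adjusted p = 0.7, edgeR). The call thus turned on which library was left out, and it was also made without the filter on low counts (-0.59, adjusted p = 0.005, edgeR).

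TFR2, transferrin receptor 2 (NCBI gene 7036, chr7:100218039-100240402), is an iron sensor of hepatocytes and erythroid cells that partners the erythropoietin receptor. It was at 231 and 189 normalized CPM with EV and at 236 and 192 with RUNX1::ERG. Replicate 1 exceeded replicate 2 in both groups and the groups overlapped almost completely, with a log2 fold change of 0.03 (SE 0.17, 95% interval -0.35 to 0.41, adjusted p = 0.96, edgeR). In per-kilobase levels, TFRC exceeded TFR2 by a ratio of 1.76 and 3.89 in the EV libraries and of 1.39 and 2.3 in the RUNX1::ERG libraries. This ratio carried the spread of TFRC.

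STEAP3 (NCBI gene 55240, chr2:119981407-120023228) is the endosomal reductase that turns ferric into ferrous iron. It was at 46.2 and 69.7 normalized CPM with EV and at 45.8 and 52.6 with RUNX1::ERG, and again EV replicate 2 was the highest library. The log2 fold change was -0.24 (SE 0.21, 95% interval -0.70 to 0.22, adjusted p = 0.62, edgeR), and it turned to 0.09 without EV replicate 2. STEAP3-AS1 lies on the opposite strand, and reads of the pair cannot be told apart where counting did not use strand, which the sources used here do not state.

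SLC11A2 (NCBI gene 4891, chr12:51373184-51422349), the divalent metal transporter DMT1, lets ferrous iron out of the endosome. It was at 59.8 and 60.8 normalized CPM with EV and at 59.5 and 69.5 with RUNX1::ERG. The EV libraries lay between the RUNX1::ERG libraries, and the log2 fold change was 0.10 (SE 0.16, 95% interval -0.26 to 0.46, adjusted p = 0.83, edgeR).

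SLC25A37, or mitoferrin 1 (NCBI gene 51312, chr8:23386469-23432976), brings iron into mitochondria and is needed for heme synthesis in developing red cells. It was at 205 and 198 normalized CPM with EV and at 136 and 131 with RUNX1::ERG. Both RUNX1::ERG libraries lay below both EV libraries, and the replicates of each group were close, with gaps of 0.06 on the log2 scale in both groups. The means were 202 ± 5.46 (SD, n = 2) and 134 ± 3.72 (SD, n = 2), a log2 fold change of -0.59 (SE 0.15, adjusted p = 0.048, edgeR). Its rank by p was 715 among 15394 genes, near the end of the 737 called. The adjusted p was 0.056 with upper quartile scaling, 0.059 with library totals alone and 0.052 with a minimum of 10 counts in every library. Leaving out 1 library gave adjusted p-values from 0.051 to 0.19 (edgeR), with log2 fold changes from -0.62 to -0.57. The size of the fall thus held in these alternatives and its call did not. The erythroid, megakaryocyte, platelet, CD14 and LYZ levels given above differed between the same groups, and their part in this fall was not tested.

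Mitoferrin 2, encoded by SLC25A28, does the same work in cells outside the erythroid line. It was at 12.7 and 12 normalized CPM with EV and at 13.5 and 11.2 with RUNX1::ERG (log2 fold change 0.00, 95% interval -0.47 to 0.47, adjusted p = 1, edgeR). The per-kilobase ratio of SLC25A37 to SLC25A28 was 5.29 and 5.38 with EV and 3.3 and 3.82 with RUNX1::ERG, so mitoferrin 1 RNA was the more abundant in every library. ABCB10, an inner membrane transporter that binds and stabilizes mitoferrin 1, was at 150 and 137 normalized CPM with EV and at 101 and 114 with RUNX1::ERG. Its libraries also separated by group, as those of 22.1% of tested genes did in this direction. ABCB10 had a log2 fold change of -0.42 (SE 0.16, 95% interval -0.77 to -0.08) and did not pass the test (adjusted p = 0.18, edgeR). Among 9128 other genes with a mean of at least 10 normalized CPM, those whose 4 values, centred on the gene's log2 mean, lay nearest to SLC25A37 were PCGF6, BUD23 and SLC6A6. Their root mean square differences from it were 0.017, 0.018 and 0.020 on the log2 scale, over 4 libraries that fall into 2 groups.

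FTH1 (NCBI gene 2495, chr11:61727190-61735106, minus strand) encodes the heavy chain of ferritin, which oxidizes iron as it enters the shell. It was at 1745 and 1704 normalized CPM with EV and at 1858 and 1700 with RUNX1::ERG. The lowest and the highest values were both RUNX1::ERG libraries, and the log2 fold change was 0.04 (SE 0.12, 95% interval -0.23 to 0.32, adjusted p = 0.91, edgeR). Counts on the pseudogene FTH1P3, the 1 copy found by symbol among the listed genes, were at most 0.0221% of those on FTH1. Copies that are not listed could not be checked. BEST1 overlaps FTH1 on the opposite strand.

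FTL (NCBI gene 2512, chr19:49468566-49470136) encodes the light chain, which helps the iron core form. It was at 1860 and 1907 normalized CPM with EV and at 2282 and 2089 with RUNX1::ERG. Both RUNX1::ERG libraries lay above both EV libraries, yet the log2 fold change of 0.21 did not pass the test (SE 0.12, 95% interval -0.05 to 0.48, adjusted p = 0.41, edgeR). The ratio of FTL to FTH1, which does not depend on library scaling, was 1.47 and 1.55 per kilobase with EV and 1.7 and 1.7 with RUNX1::ERG. The 2 groups did not overlap in this ratio, and its group difference was 0.17 on the log2 scale. The ratio was not tested, and single genes separated upward in 25.1% and downward in 22.1% of those tested. NCOA4, the receptor that carries ferritin to lysosomes so that its iron is released, was at 316 and 368 normalized CPM with EV and at 402 and 487 with RUNX1::ERG. It lay higher in both RUNX1::ERG libraries without passing the test (log2 fold change 0.38, SE 0.16, adjusted p = 0.24, edgeR).

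SLC40A1 (NCBI gene 30061, chr2:190425316-190448484, minus strand) encodes ferroportin, the known exporter of free iron. It was at 35.9 and 52.9 normalized CPM with EV and at 30.8 and 38.8 with RUNX1::ERG. RUNX1::ERG replicate 2 was above EV replicate 1, so the groups overlapped, and the log2 fold change was -0.35 (SE 0.22, 95% interval -0.83 to 0.13, adjusted p = 0.45, edgeR). EV replicate 2 set much of this difference, which was -0.05 without it. FLVCR1, which exports heme, was at 22.5 and 29.9 normalized CPM with EV and at 24 and 24 with RUNX1::ERG (log2 fold change -0.13, adjusted p = 0.81, edgeR).

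ACO1 (NCBI gene 48, chr9:32384601-32454767) encodes iron regulatory protein 1, which is a cytosolic aconitase when it holds an iron-sulfur cluster and binds RNA when it does not. It was at 49 and 58.6 normalized CPM with EV and at 49.5 and 59.1 with RUNX1::ERG. IREB2 (NCBI gene 3658, chr15:78729773-78793795) encodes iron regulatory protein 2, which is degraded when iron is plentiful, and it was at 146 and 160 with EV and at 135 and 169 with RUNX1::ERG. Neither gene separated the groups. The log2 fold changes were 0.01 (95% interval -0.38 to 0.40) for ACO1 and -0.01 (95% interval -0.38 to 0.36) for IREB2, with adjusted p-values of 0.98 and 0.99 (edgeR). The IREB2 to ACO1 ratio per kilobase was 3.5 and 3.21 with EV and 3.2 and 3.37 with RUNX1::ERG, so IREB2 RNA was the more abundant throughout. FBXL5, the iron-sensing ligase subunit that marks IREB2 protein for degradation, was at 17.6 and 20.6 normalized CPM with EV and at 18.6 and 24 with RUNX1::ERG (log2 fold change 0.15, adjusted p = 0.78, edgeR). The RNA of these sensors does not report their activity, which is set on the protein.

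**Figure D3:**
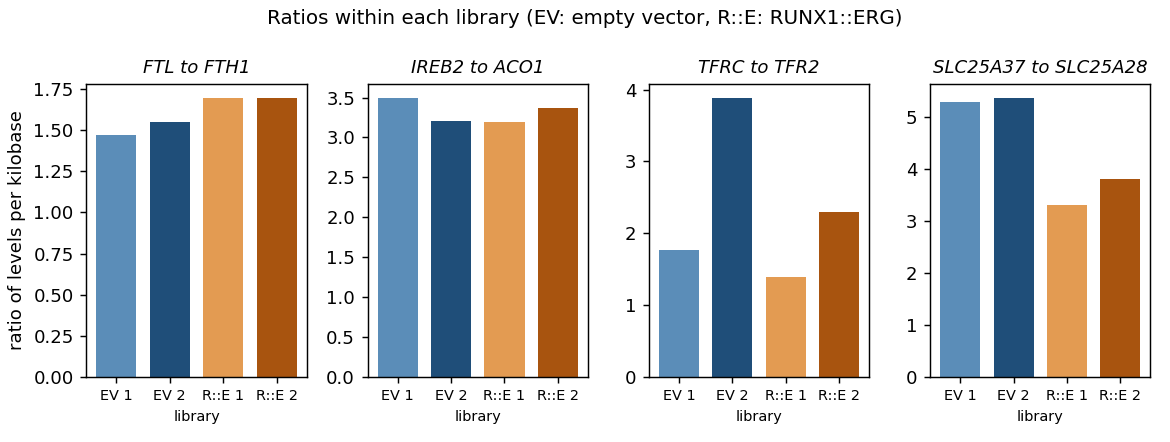
Ratio of per-kilobase levels for 4 gene pairs in each library, with bars that start at 0; blue bars are the EV libraries and orange bars the RUNX1::ERG libraries. FTL to FTH1 is higher and SLC25A37 to SLC25A28 lower in both RUNX1::ERG libraries, whereas IREB2 to ACO1 and TFRC to TFR2 overlap.

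The spread between replicates set what could be seen. TFRC, STEAP3 and SLC40A1 had the widest gaps between the EV libraries, 0.85, 0.59 and 0.56 on the log2 scale, and in all 3 EV replicate 2 was the highest library. These gaps exceeded those of 87.7%, 79.5% and 77.8% of tested genes. At the other end, the EV gaps were 0.02 for SLC11A2, 0.03 for FTH1, 0.04 for FTL and 0.06 for SLC25A37, and no more than 12.2% of tested genes had smaller ones. The gaps between the RUNX1::ERG libraries ran from 0.06 for SLC25A37 to 0.42 for TFRC.

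The other genes of iron, heme and iron-sulfur metabolism were read from 8 lists holding 85 genes, of which 76 could be tested. In all, 6 passed the test, and the 5 that rose are described here. None of 11 tested genes of uptake and trafficking, 7 of mitochondrial iron, 5 of storage and iron chaperones or 24 of iron-sulfur cluster assembly passed the test, with median log2 fold changes of -0.21, -0.09, 0.00 and -0.02 beside 0.00 over all genes tested. At an unadjusted p under 0.05, edgeR would count 3, 1, 1 and 3 of these genes, beside 2767 of all 15394 tested. The limma voom test called none of them and the DESeq2 Wald test called 1, SLC39A14, a metal importer named here after its values were seen (103 and 102 normalized CPM with EV, 56.3 and 77.6 with RUNX1::ERG, adjusted p = 0.089 in edgeR and 0.036 in DESeq2). Among these, HFE, which binds transferrin receptor 1 and lowers its affinity for transferrin, was at 1.69 and 1.46 normalized CPM with EV and at 1.77 and 1.7 with RUNX1::ERG. CYBRD1, a ferric reductase of the cell surface, was at 28.4 and 29.2 with EV and at 27 and 28.3 with RUNX1::ERG.

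Of 13 regulators of iron balance, 4 rose and none fell in edgeR, limma voom and DESeq2, with a median log2 fold change of 0.16. Over all tested genes, edgeR called 3.64% higher. The regulators were listed with earlier results of these data known, so their count cannot be weighed against that share. BMP6 and TMPRSS6 entered the test only through the RUNX1::ERG libraries, and with a minimum of 10 counts in every library 2 of 10 tested regulators rose, HJV and EPAS1. Leaving out RUNX1::ERG replicate 1 left 1 call higher, and leaving out EV replicate 1 gave 6. HJV, a coreceptor for bone morphogenetic proteins that drives hepcidin in liver, was at 20.3 and 15.4 normalized CPM with EV and at 41.5 and 36.5 with RUNX1::ERG (log2 fold change 1.13, SE 0.20, adjusted p = 0.01, edgeR). BMP6, the ligand that signals iron load to hepcidin, had 2 and 0 counts with EV and 212 and 108 with RUNX1::ERG. Summed over each group, this was a 134-fold difference with a 95% counting interval of 36.8 to 1111. This fold rests on the 2 counts of EV replicate 1, and the fitted log2 fold change of 6.87 was 10.25 without that library and 5.85 without EV replicate 2. TMPRSS6, a protease that cleaves HJV, had 0 and 0 counts with EV and 24 and 19 with RUNX1::ERG. Setting EV to 3 counts over the group gives a 12-fold difference. This is not a firm lower bound, since low counts were mostly even and the error of the RUNX1::ERG counts was left out. EPAS1, the hypoxia factor HIF-2α, was at 18.3 and 18.2 normalized CPM with EV and at 31.8 and 35.3 with RUNX1::ERG (log2 fold change 0.88, SE 0.18, adjusted p = 0.021, edgeR). EPAS1 lost its call without either RUNX1::ERG library (adjusted p = 0.064 and 0.077), and HJV and TMPRSS6 lost theirs without RUNX1::ERG replicate 1 (adjusted p = 0.055 and 0.12, edgeR).

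Among 3 tested export genes, HEPH rose. It encodes hephaestin, the oxidase that works beside ferroportin, and was at 115 and 119 normalized CPM with EV and at 173 and 193 with RUNX1::ERG (log2 fold change 0.64, SE 0.15, adjusted p = 0.04, edgeR). Its adjusted p was 0.075, 0.097 and 0.2 without EV replicate 1, RUNX1::ERG replicate 1 and RUNX1::ERG replicate 2. Its partner SLC40A1 had the fitted value of -0.35 given above.

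Of the 9 enzymes of heme synthesis, which use the iron that SLC25A37 imports, none rose, and the median log2 fold change was 0.00. Of the 6 other transcripts known for an iron-responsive element, EPAS1 rose, as above, and the other 5 did not pass the test.

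**Figure D4:**
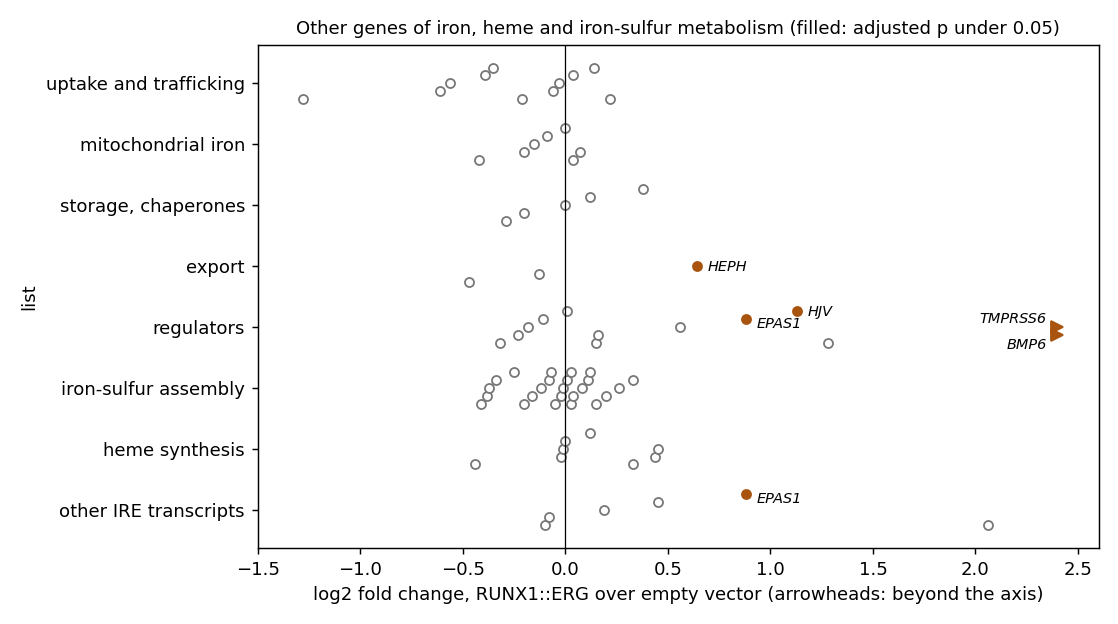
Log2 fold change, RUNX1::ERG over EV, of the tested genes in 8 further lists (1 gene is not shown), with 1 point per gene and filled, named points where the adjusted p was under 0.05. TMPRSS6 and BMP6, near 0 counts with EV, lie beyond the axis as arrowheads; EPAS1 belongs to 2 lists, and HEPH and HJV are the other filled points.

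Promoter windows of RefSeq (GRCh38.p14, 250 bases before to 50 after the start) were given for 7 of the 10 genes, all but TFR2, FTH1 and SLC25A37. On either strand, 0 of 7 held the E-box CACGTG (7.43% of 27305 promoters), 0 held the Runt motif TGTGGT (13.1%) and 0 held the GATA motif AGATAA (10.5%). The ETS motif CCGGAA was in 1, SLC11A2 (17.6% of promoters). A missing match says only that these letters are not in this window.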

How the data were processed

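The authors deposited raw read counts per gene, 1 file for each of 4 libraries, keyed by NCBI gene number and without normalization. The submitters' processing notes name hg19, HISAT2 2.2.1 and featureCounts 2.0.1; the annotation and strand setting are not given in the sources used here. Of low counts (1 to 10), 66.7% to 68.9% were even, as when both mates are counted, so intervals and the limit of 3 counts for a 0 (0.0364 to 0.0503 CPM) cover counting error only and are too narrow. RefSeq symbols matched 92.2% of 25702 genes.

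Counts were analysed in R 4.3.3 with edgeR 4.0.16 (TMM, its low-count filter, quasi-likelihood test, Benjamini-Hochberg adjustment over 15394 genes, threshold 0.05, no block). SE was the log2 fold change over the root of F. Alternatives used DESeq2 1.42.0, limma 3.58.1 voom, other scalings and filters, halved counts, a replicate block and leaving out each library. The procedure was tested on simulated data. P-values rest on the spread between these samples, with each gene's spread drawn toward that of all genes. Replicates were not duplicates (chi-square per degree of freedom 95.2 and 72.6).

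Members and lists were chosen with earlier results of these data known. Named genes were all members, ERG, RUNX1 and MYC, 7 partners (HFE, NCOA4, FBXL5, SLC25A28, ABCB10, FLVCR1, CYBRD1), every called gene of the other iron lists (at most 5 a list; 1 is not reported here) and the 3 genes nearest in pattern to a called member.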

Additional observations from a re-analysis of the deposited data

How the results depend on the processing

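The 10 genes' fold changes kept direction and side of the threshold in 107 of 130 alternative values; 12 reversed, 7 lost and 4 gained a call. The cause was not tested. With 737 genes called in all, no filter gave 1500, the DESeq2 Wald test 1194, the replicate block 1733 and leaving out a library 286 to 1336. The share of calls that were higher was 76%, but 64.1% without a filter, 62.4% with the block and 54.9% without EV replicate 2. Of the 10 genes, 0 were called with upper quartile scaling, library totals alone or a minimum of 10 counts in every library, 2 without a filter and with the block, and 0 to 1 with a library left out. The other iron lists had 10 calls without a filter and with the block, not 6, and 1 to 8 with a library left out. SLC25A37 lost its call at -0.56 (upper quartile), -0.55 (library totals), -0.59 (minimum of 10 counts) and -0.62 to -0.57 (leave-outs). TFRC gained one at -0.59 without a filter (adjusted p = 0.005, edgeR) and -0.53 with the block (adjusted p = 0.014), and ran from -0.94 to -0.09 in the leave-outs. IREB2 reversed to 0.02 (upper quartile) and 0.03 (library totals), and ACO1 was 0.00 in DESeq2. Leave-outs ranged from -0.13 to 0.18 for TFR2, -0.02 to 0.09 for FTH1, -0.03 to 0.20 for SLC11A2, -0.51 to 0.09 for STEAP3, -0.20 to 0.15 for IREB2 and -0.13 to 0.15 for ACO1. With 1 library left out, the lone library was assumed to vary like the other group.

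Same-numbered libraries deviated together with a correlation of 0.24 over 15220 genes. The labels do not say what a number shares, so the replicate block was kept as an alternative; among the 10 genes it changed the call of TFRC alone, and among their partners that of NCOA4 (0.37, adjusted p = 0.039, edgeR). Counts were deep for the 10 genes, and 2 libraries a group limit what differences can be called.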
